A study of Homo sapiens with 9 samples.

Results

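The genes described here encode the collagens, the laminins, fibronectin and tenascin C, the main structural proteins of the extracellular matrix. They are the 58 protein-coding genes, in a table of 62703 genes, whose symbol is FN1, TNC, a collagen chain (COL with an A chain number) or a laminin chain (LAMA, LAMB or LAMC with a number). Of these, 21 encode basement membrane proteins (6 chains of collagen IV, 12 laminin chains, and COL7A1, COL15A1 and COL18A1), 11 encode chains of fibrillar collagens, 24 encode other collagens, and FN1 and TNC encode interstitial glycoproteins. The RNA came from HK-2 cells, a human proximal tubule line transformed with papillomavirus genes, in 3 groups of 3 libraries. The first group was untreated (libraries 1, 2 and 3). The second was exposed for 48 h to aristolochic acid, a nephrotoxic plant compound, at 5 µg/ml (libraries 1, 4 and 6). The third was given the same toxin and a MYDGF adenovirus, which makes the cells overexpress this secreted growth factor (libraries 1, 3 and 4). All groups shared 12 h without serum and medium with 5% serum, as the labels give it.

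Some limits come with these labels. The treatment entries of untreated 2 and 3 and of MYDGF 3 and 4 read HK-3 or HK-4, whereas the cell line entry reads HK-2 for all 9 libraries. No control virus or vehicle is named for the other groups, so MYDGF and the vector cannot be told apart. Nothing in the labels shows that replicate libraries come from separate cultures, and the spread that the p-values measure may therefore be technical. All values come from 1 transformed line that grows without the fibroblasts, endothelium and glomerulus of a kidney.

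Basement membranes are thin sheets on which epithelia rest. Laminins, trimers of an α, a β and a γ chain, assemble on the cell surface, and a network of collagen IV, itself made of trimers of α chains, is joined to them by nidogens and perlecan. In the kidney, collagen IV of the COL4A1 and COL4A2 chains is found in all basement membranes, while the COL4A3, COL4A4 and COL4A5 chains form the network of the mature glomerular and some tubular membranes. Fibrillar collagens, collagen VI, fibronectin and tenascin C belong to the interstitial matrix, whose accumulation is known as fibrosis and is made largely by fibroblasts.

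Total counts ran from 10.9 to 14.3 per library in units of 1e6, and levels are given as CPM, the counts of a library scaled to a total of 1e6 with the trimmed mean of M-values. MYDGF itself was at 124.8, 130.7 and 122.8 CPM in untreated cells, 104.9, 74.2 and 90.4 CPM with aristolochic acid, and 662.9, 510.2 and 599.1 CPM in the MYDGF group, so the overexpression was visible in all 3 libraries that should carry it. The keratins of tubule lines, KRT8 and KRT18, averaged 580 and 372 CPM in untreated cells. The 8 tubule markers summed, mostly through these 2 keratins, to 980 to 1013 CPM in untreated, 1528 to 1650 CPM in aristolochic acid and 1309 to 1334 CPM in MYDGF libraries. All 4 that could be tested (KRT8, KRT18, KRT19 and ANPEP) rose with aristolochic acid, and with MYDGF against the toxin KRT19 rose and the other 3 fell. Other genes that define tubule cells were near 0: PAX8 averaged 0.456 CPM and PAX2 0.344 CPM in untreated cells, and CDH6 had no count in any library. Defining fibroblast genes were at or near 0, with no count of DPT, 1 of DCN and 2 of LUM over all libraries. Of the endothelial markers EMCN had no count, while 3 could be tested, of which 2 rose with aristolochic acid. Of the leukocyte markers CD3E had no count, while 2 could be tested, of which 1 rose with aristolochic acid. The summed level of the 8 fibroblast and mesangial markers ran from 41.3 to 52.8 CPM in untreated, 71.5 to 83 CPM in aristolochic acid and 88.5 to 98.3 CPM in MYDGF libraries, nearly all of it TAGLN, a smooth muscle actin-binding protein, and 3 of the 8 rose with aristolochic acid. The 6 endothelial markers summed to 1.29 to 1.43, 7.85 to 13.8 and 3.83 to 4.31 CPM in the same order, the rise being mostly PECAM1. The 6 leukocyte markers summed to 3.25 to 6.36, 14.4 to 16.5 and 6.71 to 9.96 CPM, the rise being ITGAM, and the 5 podocyte markers, mostly SYNPO, to 324 to 340, 262 to 304 and 246 to 250 CPM. The part of these markers in the results was not tested.

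A test of aristolochic acid against untreated cells called 33 of the 41 testable matrix genes changed, mostly downward. Genes were tested with edgeR's quasi-likelihood test over the 18267 genes with enough counts, and called where the Benjamini-Hochberg adjusted p was under 0.05. With aristolochic acid, 10 matrix genes rose and 23 fell, beside 29.7% and 29.3% of all genes tested. Some of these were tested only through groups where they were high, as stated below for each. The median log2 fold change of the 41 testable matrix genes was -0.42, against -0.01 over all genes tested. Between the MYDGF group and aristolochic acid alone, 11 rose and 7 fell, beside 14.7% of all genes in each direction, with a median of 0.19 against 0.01. Between the MYDGF group and untreated cells, 9 rose and 18 fell, beside 26.8% and 24.3% of all genes, with a median of -0.18 against 0.02. The first 2 comparisons use the same aristolochic acid libraries, so a high or low value in those libraries moves both, in opposite directions. In total RNA from a culture, fewer cells that make a transcript and less of it per cell cannot be told apart.

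Of 17 testable basement membrane genes, 2 rose and 12 fell with aristolochic acid, beside 29.7% and 29.3% of all genes tested. With MYDGF against the toxin alone 7 rose and 2 fell, beside 14.7% each way, and the 2 that fell (11.8%) are near that share. Against untreated cells, 3 were higher and 9 lower in the MYDGF group, beside 26.8% and 24.3% of all genes. Of 8 testable fibrillar genes, 4 rose and 2 fell with aristolochic acid, none rose and 2 fell with MYDGF against the toxin, and 3 were higher and 2 lower in the MYDGF group than in untreated cells. COL2A1 and COL11A2 are 2 of the 4 that rose, 2 of the 3 that were higher in the MYDGF group, and the 2 that fell with MYDGF. Both were under 0.5 CPM in untreated cells, as was COL20A1 among the other collagens. COL2A1 passed the filter on low counts only with the aristolochic acid group, and COL11A2 and COL20A1 through either treated group. A rise over untreated cells was therefore bound up with their being tested. COL5A3, another of the 4, also passed only with the treated groups, since untreated 1 had 8 counts, under the minimum count of 10. The rise of COL27A1, the last of the 4, was lost without any one of 5 libraries (adjusted p from 0.053 to 0.133). These fibrillar counts are therefore a description, and the difference between the classes was not tested.

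**Figure D1:**
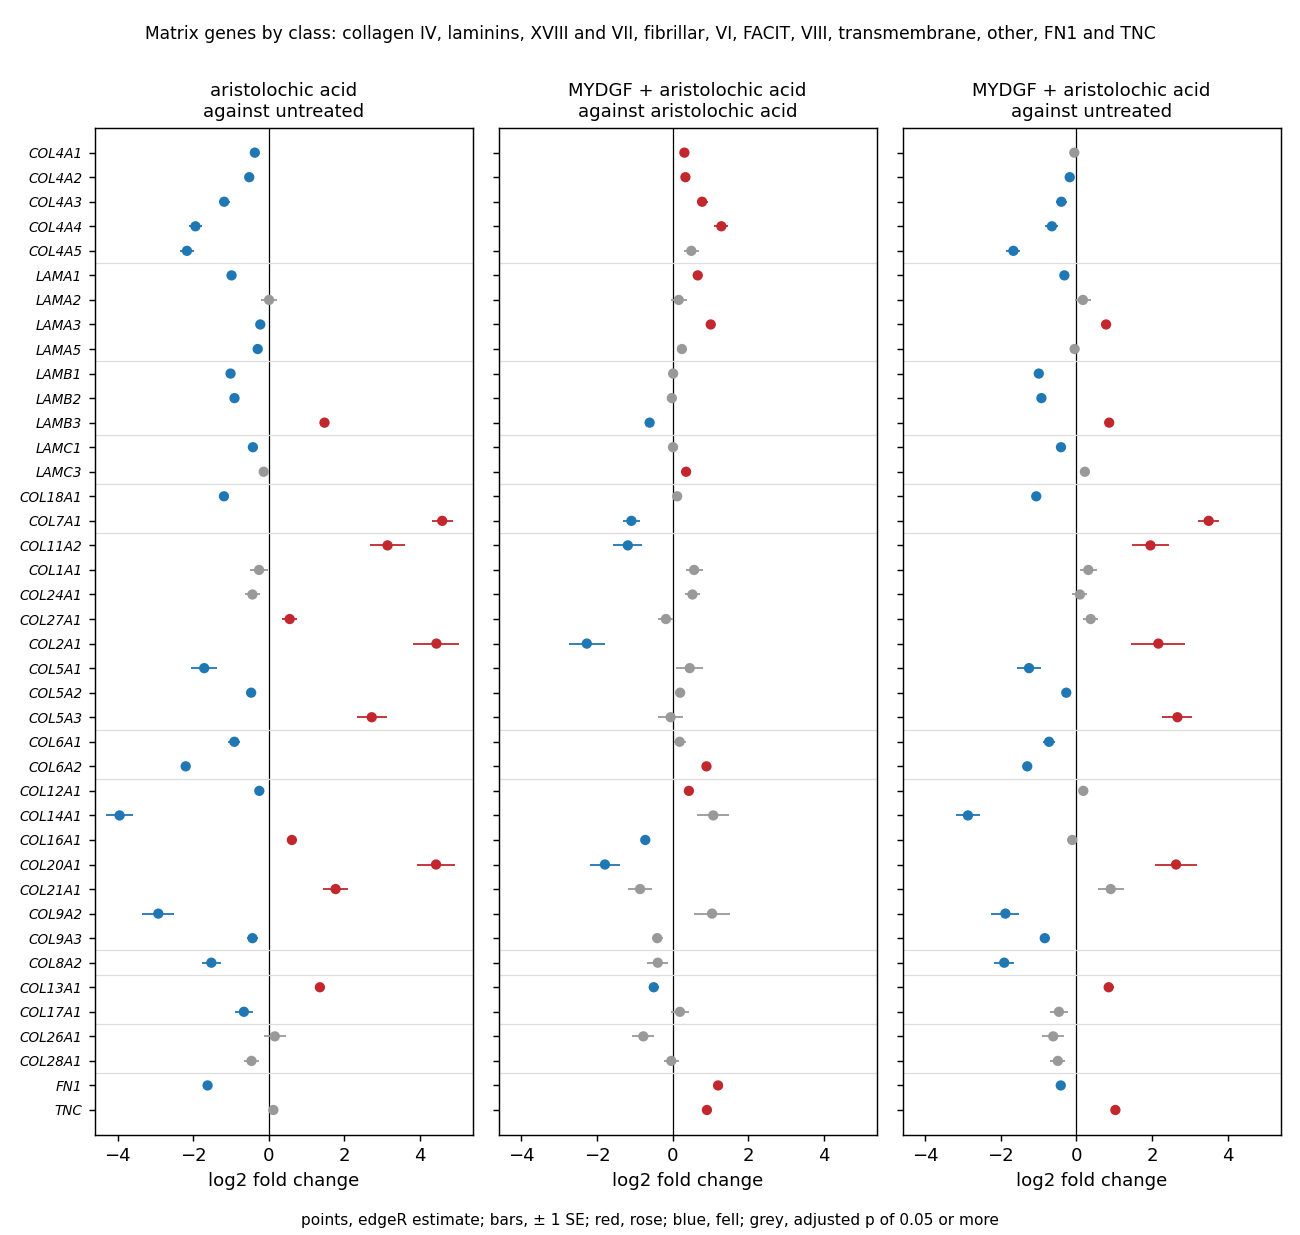
Log2 fold change of 40 testable matrix genes in the 3 comparisons, one row per gene and thin lines between the classes, with points at the edgeR estimate and bars of 1 SE. In the left panel all 5 collagen IV chains lie below 0, and COL7A1 at 4.59, COL2A1 at 4.44 and COL20A1 at 4.43 lie farthest to the right. In the middle panel 4 of the 5 collagen IV chains are called above 0, beside 14.7% of all genes tested. The call of COL4A1 among them was lost without any one of 5 libraries.

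The 2 kinds of gene also differed in level. By the deposited FPKM, which divides by gene length and allows levels of different genes to be compared, LAMB3 was highest with a mean of 141 over the 9 libraries. LAMC1 followed at 62.6 FPKM, COL18A1 at 37.6 FPKM and LAMA5 at 33.5 FPKM, all of them basement membrane genes. In untreated cells LAMB3 and LAMC1 were level at 74.6 FPKM each. The summed level of the 21 basement membrane genes was 316 ± 4.32 FPKM (SD, n = 3) in untreated cells, 379 ± 18.2 FPKM with aristolochic acid and 319 ± 8.2 FPKM with MYDGF. LAMB3 carried the higher sum with the toxin. Without it the other 20 genes summed to 241 ± 2.44 FPKM in untreated cells, 169 ± 9.87 FPKM with aristolochic acid and 182 ± 5.51 FPKM with MYDGF. In CPM, which does not divide by length, the sum of all 21 was 3762 ± 40.5, 3571 ± 25.6 and 3411 ± 36.1 in the same order. The summed FPKM of the 11 fibrillar genes was 6.09 ± 0.138, 6.62 ± 0.61 and 6.85 ± 0.122 FPKM in the same order. The lengths behind the FPKM were 1.12 to 8.23 times those of the longest coding transcript in GENCODE 29, with a median of 2.01. The ratio was highest for COL13A1 (26243 against 3187 bases) and was 3.39 for FN1 (30202 against 8905 bases). With the transcript length in its place, the same 4 genes led in the same order by the mean over the 9 libraries. By that mean, 9 of the 10 highest genes were shared. In untreated cells alone the order differed, with LAMB3 at 108, COL18A1 at 102, LAMC1 at 92.2, COL6A2 at 64.5 and LAMA5 at 56.5 CPM per kb.

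Collagen IV fell as a group with aristolochic acid: all 5 testable chains were lower, beside 29.3% of all genes tested. Their median log2 fold change was -1.18. COL4A1, on the minus strand at chr13:110148963-110307157 of GRCh38, and COL4A2, on the plus strand at chr13:110305812-110513209, encode the chains of the common network. Their RefSeq start sites lie head to head with 126 bases between them. COL4A3 and COL4A4 face each other in the same way on chromosome 2 with 418 bases between, and COL4A5 and COL4A6 on chromosome X with 379 bases, or 1415 bases from the other COL4A6 start. The stretches shown here, read 5′ to 3′ on the plus strand of RefSeq's GRCh38.p14, are those between the starts of the first 2 pairs that hold a CCAAT box (CCAAT, the motif of NF-Y) or a GC box (GGGCGG, the core of the Sp1 motif) on either strand, in capitals. Each is shown as it lies upstream of both RefSeq starts of its pair, though the first 2 lie within the COL4A2 span above. The stretches are cut to 30 bases where GENCODE 29 has a longer transcript.
COL4A1/COL4A2, chr13:110307167-110307196: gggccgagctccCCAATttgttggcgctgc
COL4A1/COL4A2, chr13:110307207-110307236: ccggcggtgcgcGGGCGGcgcctcaaaggg
COL4A3/COL4A4, chr2:227164589-227164618: gccctacaaaacCCGCCCcggccgagtggc
COL4A3/COL4A4, chr2:227164454-227164564: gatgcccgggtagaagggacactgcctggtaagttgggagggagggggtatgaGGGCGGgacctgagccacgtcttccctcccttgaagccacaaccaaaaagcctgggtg
Over the windows from 250 bases before to 50 bases after a start, RefSeq gave 57 for 43 of the 58 matrix genes. GGGCGG was in 34 of the 57 windows (59.6%), those of 29 genes, and in 44.9% of all 34796 windows. CCAAT was in 17 of the 57 (29.8%), those of 15 genes, and in 34.6% of all. A match is a description of these letters and not of a bound site.

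COL4A2 was at 341, 320 and 306 CPM in untreated cells, 230, 216 and 230 CPM with aristolochic acid, and 286, 288 and 281 CPM with MYDGF. The 3 groups did not overlap, and the MYDGF group lay between the others. The fall with aristolochic acid was -0.52 on the log2 scale (SE 0.057, adjusted p = 6.9e-05), and COL4A2 rose by 0.34 with MYDGF (SE 0.057, adjusted p = 0.00333). It stayed lower than in untreated cells by a log2 difference of -0.18 (adjusted p = 0.0264), a call that was lost when any of untreated 1 or MYDGF 1, 3 or 4 was left out (adjusted p from 0.0801 to 0.121).

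Its partner COL4A1 was at 149, 123 and 124 CPM untreated, 110, 91.9 and 105 CPM with aristolochic acid, and 121, 132 and 128 CPM with MYDGF. The aristolochic acid libraries were the lowest, and the other groups overlapped. COL4A1 fell by 0.37 on the log2 scale with aristolochic acid (SE 0.097, adjusted p = 0.00875) and was 0.31 higher with MYDGF (SE 0.097, adjusted p = 0.0374). The second call was lost when aristolochic acid 4 or 6 or any of the 3 MYDGF libraries was left out (log2 fold change from 0.24 to 0.34, adjusted p from 0.0628 to 0.115). It was also lost with DESeq2-style size factors in edgeR (adjusted p = 0.0543) and without a filter on low counts (adjusted p = 0.0666). The ratio of COL4A2 to COL4A1 counts moved little, from 2.45 ± 0.159 (SD, n = 3) in untreated cells to 2.21 ± 0.135 with aristolochic acid and 2.24 ± 0.104 with MYDGF. The 2 genes overlap in the table on opposite strands, and the sources used here do not say whether counting used the strand.

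COL4A3 and COL4A4 of the mature network were less abundant per length than the common pair, at 0.408 and 1.72 FPKM in untreated cells against 6.13 FPKM for COL4A1 and 12.9 FPKM for COL4A2, while the third chain of that network, COL4A5, was at 4 FPKM. COL4A4 was at 23.1, 23.1 and 25 CPM untreated, 7.85, 5.49 and 5.15 CPM with aristolochic acid, and 12.8, 18 and 14.6 CPM with MYDGF. The groups were fully separate, with a fall of -1.94 on the log2 scale (SE 0.183, adjusted p = 3.12e-05), a rise with MYDGF of 1.29 (SE 0.183, adjusted p = 0.00185), and a remaining difference from untreated cells of -0.65 (adjusted p = 0.0112). COL4A3 was at 8.4, 8.31 and 9.31 CPM, then 4.13, 4.1 and 3.22 CPM, then 7.05, 6.48 and 6.22 CPM in the same order of groups. These groups were separate too: COL4A3 fell by 1.18 on the log2 scale (SE 0.144, adjusted p = 0.000126) and rose by 0.78 with MYDGF (SE 0.145, adjusted p = 0.00502). Its remaining difference from untreated cells, -0.40 (adjusted p = 0.0364), was lost when any untreated or any MYDGF library was left out (adjusted p from 0.0567 to 0.136). Unlike in the first pair, the ratio within this pair changed: there were 2.74 ± 0.0482 COL4A4 counts per COL4A3 count in untreated cells, 1.61 ± 0.281 with aristolochic acid, with no overlap between the 2, and 2.31 ± 0.485 with MYDGF, where the libraries ran from 1.82 to 2.78 and overlapped both.

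COL4A5, the X-linked partner of these chains, had the largest fall of the collagen IV genes. It was at 64, 61.1 and 71.9 CPM untreated, 19.3, 10.4 and 14.3 CPM with aristolochic acid, and 20.1, 22.8 and 19.2 CPM with MYDGF. The untreated libraries stood apart, and the other groups touched at 19.3 and 19.2 CPM. The change was -2.16 with aristolochic acid (SE 0.192, adjusted p = 2.32e-05) and -1.67 for the MYDGF group against untreated cells (SE 0.187, adjusted p = 0.000113). The difference of 0.50 between MYDGF and the toxin alone was not called (SE 0.192, adjusted p = 0.0796), but without aristolochic acid 1 it was 0.75 (adjusted p = 0.00749). COL4A6 was near silent, with 18, 4 and 10 counts summed over the 3 groups.

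**Figure D2:**
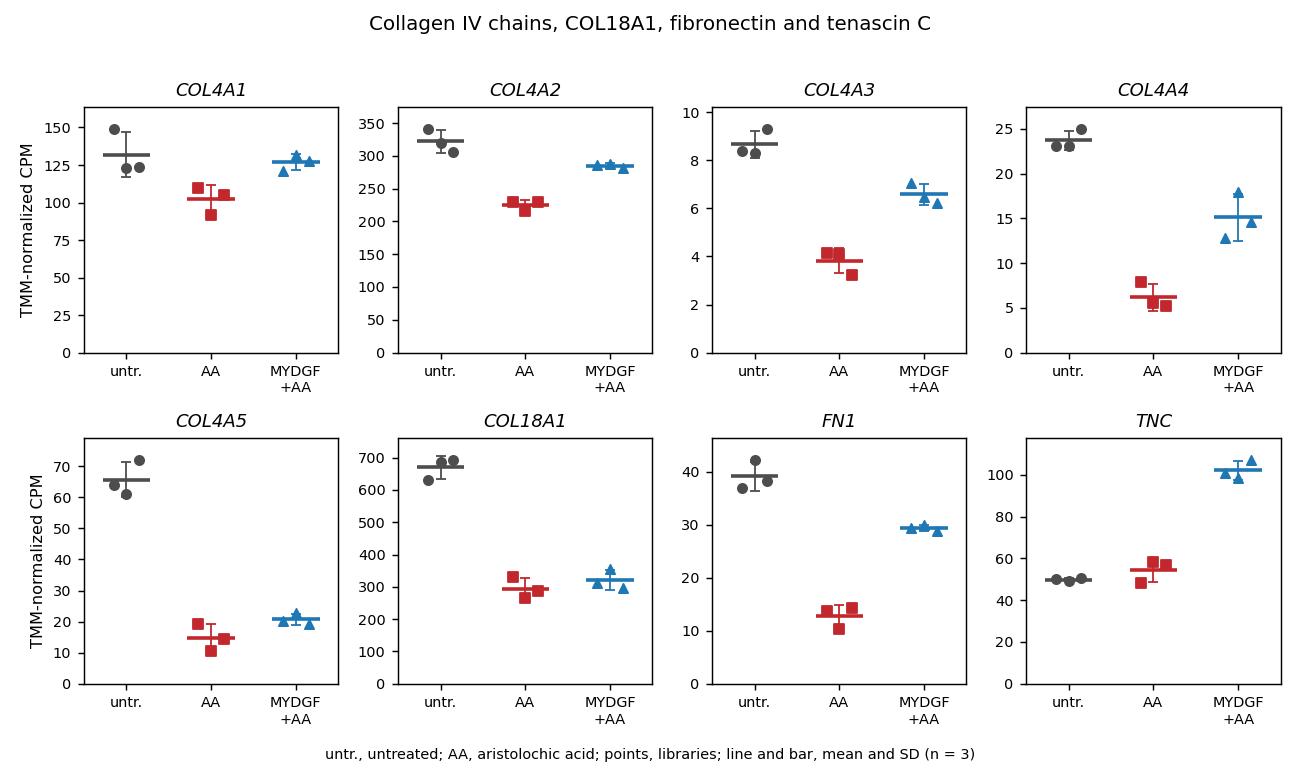
CPM per library for the 5 testable collagen IV chains, COL18A1, FN1 and TNC, on linear axes from 0, with points for libraries and lines and bars for the mean and SD of 3. In COL4A1 to COL4A4 and FN1 the MYDGF libraries lie above those given the toxin alone, in COL4A5 and COL18A1 those groups overlap, and TNC is high in the MYDGF group alone, at 98.4 to 107 CPM.

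The laminins moved chain by chain. Of 10 testable chains, 1 rose and 6 fell with aristolochic acid, beside 29.7% and 29.3% of all genes tested. With MYDGF against the toxin 3 rose and 1 fell, beside 14.7% each way, and the 1 that fell is near that share. In the MYDGF group 2 were higher and 4 lower than in untreated cells, beside 26.8% and 24.3% of all genes. The 2 that were higher are also near the share over all genes. LAMB3 at chr1:209614870-209652425 and LAMA3 at chr18:23689453-23956222 encode the β3 and α3 chains of laminin-332, the laminin of epithelial anchorage and wound edges. LAMB3 and LAMA3 are shown with their sequences because they moved in opposite directions with MYDGF while both hold TGANTCA, the palindrome that includes AP-1 motifs, before a RefSeq start. This motif was in 3 of the 57 windows of matrix genes (5.26%), the other being that of the near-silent COL10A1, and in 7.73% of all windows. The stretches are read on the strand of the gene, with that motif in capitals.
LAMB3, chr1:209651395-209651624, minus strand: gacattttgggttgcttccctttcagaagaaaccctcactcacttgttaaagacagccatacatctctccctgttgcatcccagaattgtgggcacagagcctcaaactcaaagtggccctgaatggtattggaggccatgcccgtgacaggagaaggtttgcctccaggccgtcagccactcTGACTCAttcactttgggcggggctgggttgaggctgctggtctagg
LAMA3, chr18:23872884-23872913, plus strand: ctggcacaggcTGACTCAtgtgtgaagttt
LAMA3, chr18:23872940-23872969, plus strand: ccttcctcaccTGAGTCAggcaggcccggg
The start behind each stretch lies within the span that the table gives for the gene, and the counts are per gene and do not show which start was used.

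LAMB3 was at 448, 485 and 463 CPM in untreated cells, 1123, 1468 and 1290 CPM with aristolochic acid, and 892, 773 and 883 CPM with MYDGF. No groups overlapped, and the MYDGF group was intermediate. It was 2.78-fold higher with aristolochic acid (log2 fold change 1.47, SE 0.097, adjusted p = 6.32e-06), then 1.52-fold lower with MYDGF (-0.61, SE 0.096, adjusted p = 0.00271), which left it 1.83-fold above untreated cells (0.87, adjusted p = 0.000107).

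LAMA3 took another course. Its levels were 105, 99.7 and 112 CPM untreated, 91.3, 86.4 and 93.5 CPM with aristolochic acid, and 183, 177 and 186 CPM with MYDGF. The MYDGF libraries were the highest by a wide margin, 2.01-fold above the toxin alone (log2 fold change 1.01, SE 0.065, adjusted p = 0.000102) and 1.72-fold above untreated cells (0.79, SE 0.064, adjusted p = 2.32e-05). The small fall with aristolochic acid of -0.22 (SE 0.064, adjusted p = 0.0138) was lost without untreated 3 (-0.18, adjusted p = 0.0687) and in a fit to the 6 libraries compared (-0.19, adjusted p = 0.0579).

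The proportion of LAMB3 to LAMA3 RNA therefore differed with the toxin, while the protein chains were not measured here. There were 4.42 ± 0.392 LAMB3 counts per LAMA3 count in untreated cells, 14.4 ± 2.4 with aristolochic acid, and 4.66 ± 0.259 with MYDGF. The aristolochic acid libraries, at 12.3, 17 and 13.8, did not overlap the others. The MYDGF group, at 4.86, 4.37 and 4.75, overlapped untreated cells, at 4.26, 4.87 and 4.14, although both genes were called higher in it than in untreated cells.

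**Figure D3:**
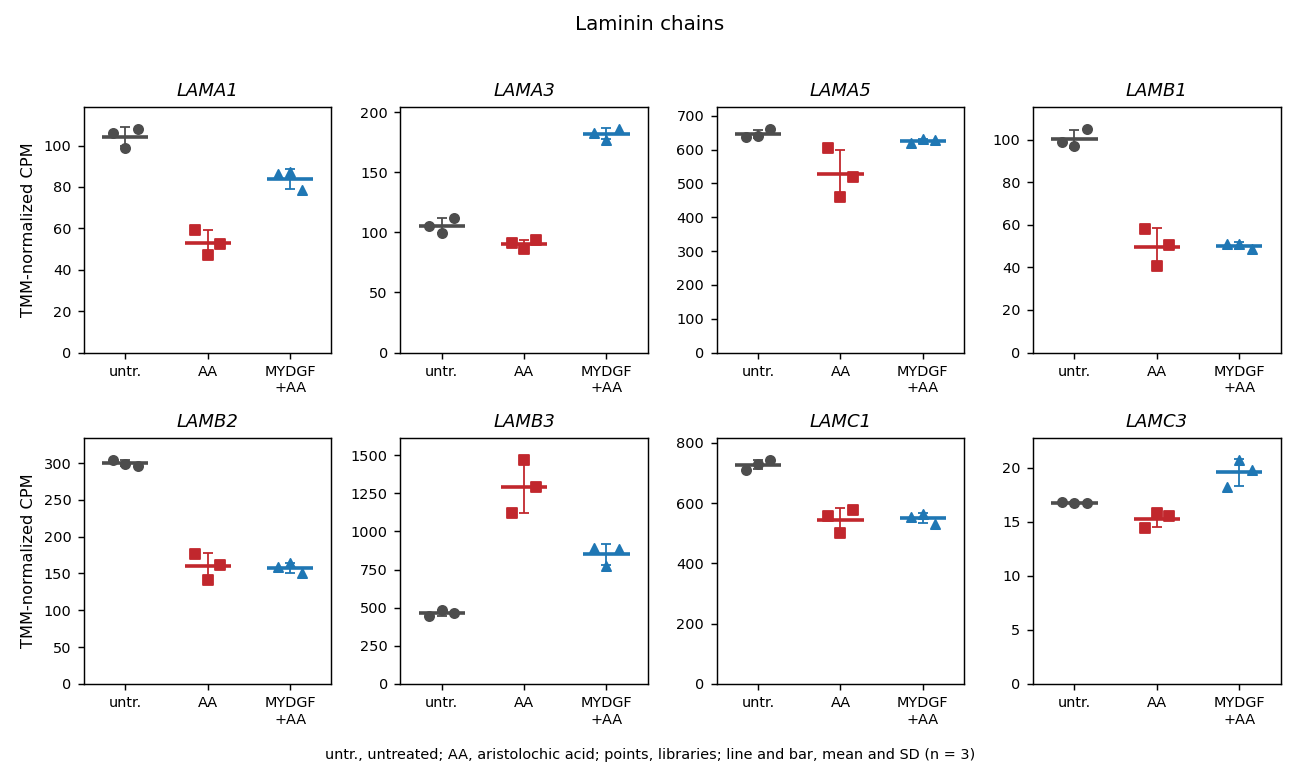
CPM per library for 8 laminin chains, on linear axes from 0, with points for libraries and lines and bars for the mean and SD of 3. LAMB3 is highest with aristolochic acid (1123 to 1468 CPM), LAMA3 with MYDGF (177 to 186 CPM), and LAMB1, LAMB2 and LAMC1 are lower in both treated groups than in untreated cells.

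The chains of laminin-511 and laminin-521, the usual laminins of adult epithelial membranes, are LAMA5, LAMB1 or LAMB2, and LAMC1. LAMC1, the γ1 chain shared by most laminins, was at 711, 730 and 742 CPM untreated, 557, 499 and 576 CPM with aristolochic acid, and 552, 564 and 531 CPM with MYDGF. Untreated cells stood apart, and the treated groups overlapped. The log2 fold change was -0.42 with aristolochic acid (SE 0.06, adjusted p = 0.000293) and -0.41 with MYDGF against untreated cells (adjusted p = 0.000503).

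The β chains fell further. LAMB2 was at 304, 299 and 296 CPM, then 177, 141 and 161 CPM, then 159, 164 and 150 CPM, and LAMB1 at 98.7, 96.9 and 105 CPM, then 58, 40.8 and 50.4 CPM, then 51.1, 51.1 and 48.6 CPM, in the order untreated, aristolochic acid, MYDGF. In both genes every treated library was below every untreated one, with log2 fold changes with aristolochic acid of -0.91 (SE 0.082, adjusted p = 2.47e-05) for LAMB2 and -1.01 (SE 0.114, adjusted p = 8.06e-05) for LAMB1. Against the toxin alone, MYDGF differed by -0.02 (SE 0.081) for LAMB2, 0.01 (SE 0.06) for LAMC1 and 0.02 (SE 0.114) for LAMB1, none called, and with DESeq2-style size factors the latter 2 were -0.02 each. LAMB1 overlaps DLD on the opposite strand.

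LAMA5, the α5 chain of adult kidney membranes, was at 638, 639 and 661 CPM untreated, 604, 461 and 518 CPM with aristolochic acid, and 619, 631 and 627 CPM with MYDGF. The aristolochic acid libraries were lowest and spread most. The fall of -0.29 (SE 0.085, adjusted p = 0.0142) was lost without untreated 3 or aristolochic acid 6 (adjusted p from 0.0546 to 0.063) and in the fit to 6 libraries (adjusted p = 0.0537). The difference of 0.25 with MYDGF was not called (adjusted p = 0.0545), but was 0.35 without aristolochic acid 1 (adjusted p = 0.00342). LAMA5 overlaps ADRM1 on the opposite strand.

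LAMA1, the α1 chain of laminin-111, typical of embryonic epithelia and retained in the proximal tubule of some species, was at 106, 99 and 108 CPM untreated, 59.3, 46.9 and 52.3 CPM with aristolochic acid, and 86.1, 87 and 78.4 CPM with MYDGF. The groups were separate and the MYDGF group intermediate: LAMA1 fell by 0.98 on the log2 scale (SE 0.093, adjusted p = 3.15e-05) and rose by 0.67 with MYDGF (SE 0.093, adjusted p = 0.00171). The remaining difference of -0.32 from untreated cells (adjusted p = 0.0167) was lost without untreated 3 or MYDGF 4 (adjusted p from 0.0765 to 0.088). LAMC3, a γ chain of restricted expression, ran from 14.4 to 20.7 CPM over all libraries. It was called with MYDGF against the toxin alone (0.36, adjusted p = 0.0186), though not without MYDGF 3 or MYDGF 4 (adjusted p from 0.0562 to 0.0588). LAMA2, the α2 chain of muscle, ran from 2.11 to 3.75 CPM and was called in no comparison.

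**Figure D4:**
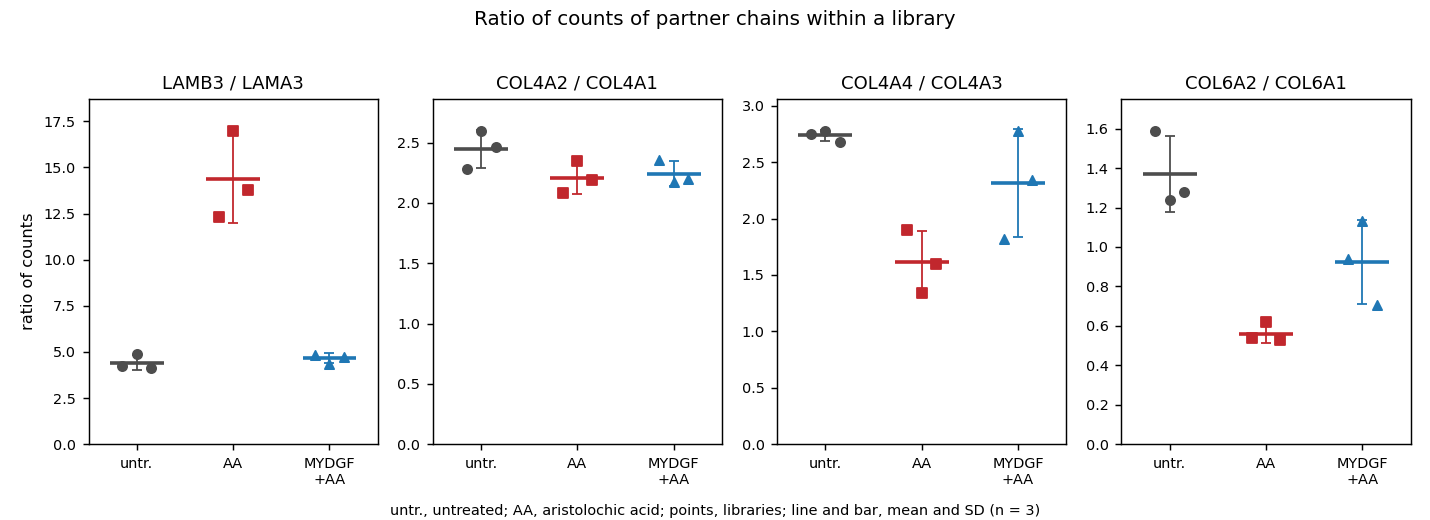
Ratio of the counts of 2 partner chains in each library, on linear axes from 0, with points for libraries and lines and bars for the mean and SD of 3. LAMB3 per LAMA3 is 12.3 to 17 with aristolochic acid and 4.14 to 4.87 in the other groups, COL4A2 per COL4A1 stays between 2.08 and 2.6, and COL4A4 per COL4A3 and COL6A2 per COL6A1 have their lowest mean with aristolochic acid.

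The remaining basement membrane genes went in opposite directions. COL18A1, whose C-terminal fragment is endostatin, was at 630, 687 and 692 CPM untreated, 331, 266 and 287 CPM with aristolochic acid, and 311, 355 and 297 CPM with MYDGF. Both treated groups were below untreated cells and overlapped each other. The log2 fold change was -1.18 with aristolochic acid (SE 0.094, adjusted p = 1.42e-05) and -1.06 for MYDGF against untreated cells (adjusted p = 3.36e-05). With MYDGF against the toxin it was 0.12 (SE 0.093), not called. COL18A1 overlaps SLC19A1 on the opposite strand.

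COL7A1, at chr3:48564073-48595329, encodes the collagen of the anchoring fibrils that tie the skin's basement membrane to the dermis. It was at 6.26, 4.7 and 3.63 CPM untreated, 92.3, 143 and 116 CPM with aristolochic acid, and 71.6, 41.8 and 51.7 CPM with MYDGF. The 3 groups did not overlap. It was 24.1-fold higher with aristolochic acid (log2 fold change 4.59, SE 0.281, adjusted p = 5.42e-06), the largest change of the 41 testable genes, and 2.13-fold lower with MYDGF than with the toxin alone (-1.09, SE 0.231, adjusted p = 0.00852). In the MYDGF group it remained 11.3-fold above untreated cells (3.50, SE 0.274, adjusted p = 1.93e-05).

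Of the fibrillar collagens at the centre of fibrosis, COL1A1 was low and was not called with all libraries, and COL1A2 and COL3A1 had too few counts to test. COL1A1, the major chain of collagen I, was at 9.38 to 11.8 CPM in untreated, 6.81 to 12.4 CPM in aristolochic acid and 11.7 to 13.9 CPM in MYDGF libraries, with differences of -0.26 (SE 0.229) and 0.57 (SE 0.227). Aristolochic acid 1, the highest of its group, decided both: without it they were -0.59 (adjusted p = 0.00809) and 0.92 (adjusted p = 0.00263). COL1A2, the other chain of collagen I, had 3, 6 and 6 counts over the libraries of the 3 groups, and COL3A1 had 6, 8 and 18. The collagen V genes split. COL5A2 fell from 41.3, 35.9 and 37.8 CPM to 25.6, 29.4 and 28.2 CPM (-0.47, SE 0.089, adjusted p = 0.00151), and COL5A1 fell from 3.57, 4.03 and 3.93 CPM to 1.62, 0.541 and 1.38 CPM (-1.71, SE 0.339, adjusted p = 0.00193), with no overlap in either. COL5A3 rose 6.61-fold, from 0.634, 1.51 and 1.51 CPM to 5.18, 12.4 and 6.62 CPM (2.72, SE 0.399, adjusted p = 0.00034), and was at 8.27, 6.71 and 8.48 CPM with MYDGF, not called against the toxin alone. It passed the filter only with the treated groups, so that a rise was bound up with its being tested. For COL5A2, the MYDGF group at 30.3, 32.9 and 32.4 CPM was still called below untreated cells (-0.27, adjusted p = 0.0302), a call lost without untreated 1 or 3 or any MYDGF library (adjusted p from 0.0589 to 0.114).

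COL2A1 and COL11A2, collagens of cartilage, were under 0.5 CPM in untreated cells. COL2A1 passed the filter only with the aristolochic acid group, and COL11A2 through either treated group. COL2A1 was at 0.0792, 0.252 and 0.227 CPM untreated, 3, 5.95 and 3.68 CPM with aristolochic acid, and 1.07, 0.234 and 1.27 CPM with MYDGF. It rose by 4.44 on the log2 scale (SE 0.609, adjusted p = 0.000236) and fell by 2.27 with MYDGF (SE 0.475, adjusted p = 0.00809). The MYDGF and untreated groups overlapped, and their difference of 2.17 (adjusted p = 0.03) was lost without any one untreated library, MYDGF 1 or MYDGF 4 (adjusted p from 0.0552 to 0.1). COL11A2 was at 0.713, 0.168 and 0.454 CPM, then 3.56, 5.56 and 2.94 CPM, then 2.45, 1.17 and 1.7 CPM, without overlap. It rose by 3.14 (SE 0.462, adjusted p = 0.000349) and fell by 1.18 with MYDGF (adjusted p = 0.0436), the second call being lost without any one of untreated 3, aristolochic acid 4 or 6, or MYDGF 3 or 4 (log2 fold change from -1.37 to -0.88, adjusted p from 0.0504 to 0.155) and without a filter (adjusted p = 0.0681).

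COL27A1, a fibrillar collagen of cartilage, was at 7.13, 7.63 and 9.91 CPM untreated and 15.6, 9.35 and 11.3 CPM with aristolochic acid, where the groups overlapped. Its call as higher (0.55, adjusted p = 0.04) was lost without any one of untreated 1, untreated 2, aristolochic acid 1, aristolochic acid 6 or MYDGF 3 (adjusted p from 0.053 to 0.133). Without aristolochic acid 1 the log2 fold change was 0.34. COL24A1 ran from 3.09 to 6.71 CPM and was not called with all libraries. Without aristolochic acid 6 it was called lower with the toxin (-0.59, adjusted p = 0.0422) and higher with MYDGF than with the toxin (0.70, adjusted p = 0.049).

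Collagen VI, which forms beaded filaments next to basement membranes, was the most abundant of the other collagens. COL6A2 fell from 226, 218 and 226 CPM to 54.8, 43.1 and 48.1 CPM, 4.59-fold lower (-2.20, SE 0.123, adjusted p = 4.09e-06). With MYDGF it was at 82.6, 107 and 82.4 CPM, between the other groups without overlap, 0.90 above the toxin alone (SE 0.12, adjusted p = 0.0015) and -1.30 from untreated cells (adjusted p = 3.8e-05). COL6A1 was at 142, 175 and 177 CPM, then 102, 69.9 and 90.9 CPM, then 88, 94.5 and 117 CPM. It fell by 0.91 (SE 0.158, adjusted p = 0.000889) and was 0.19 higher with MYDGF (SE 0.157), not called. COL6A2 counts per COL6A1 count went from 1.37 ± 0.192 to 0.561 ± 0.0483 and, with MYDGF, 0.926 ± 0.214. COL6A3, which completes the usual trimer, had 2, 2 and 6 counts over the 3 groups, and COL6A5 had none.

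The FACIT collagens, which decorate fibrils, again went both ways. Of 7 testable genes 3 rose and 4 fell with aristolochic acid, beside 29.7% and 29.3% of all genes tested. COL12A1, the most abundant, was at 120, 130 and 120 CPM, then 98.5, 99 and 114 CPM, then 137, 142 and 141 CPM with MYDGF, where it was highest. It rose with MYDGF against the toxin (0.43, SE 0.071, adjusted p = 0.00322). Its fall with aristolochic acid (-0.25, SE 0.071, adjusted p = 0.0134) was lost without aristolochic acid 1 (-0.20, adjusted p = 0.0532) and in the fit to 6 libraries (adjusted p = 0.0554). COL14A1 had the largest fall of all the testable genes, 15.4-fold, from 7.61, 6.46 and 8.02 CPM to 0.486, 0.541 and 0.368 CPM (-3.95, SE 0.357, adjusted p = 2.52e-05). It passed the filter on low counts only with the untreated group, so that a fall was bound up with its being tested. With MYDGF it was at 0.459, 1.48 and 1.06 CPM, a difference that was not called with all libraries (1.08, adjusted p = 0.0817) and was called without MYDGF 1 (1.41, adjusted p = 0.0147).

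COL16A1 rose from 6.82, 6.88 and 6.81 CPM to 10.1, 11.4 and 9.84 CPM (0.61, SE 0.119, adjusted p = 0.0017) and was at 6.82, 6.32 and 5.87 CPM with MYDGF (-0.72 against the toxin, SE 0.119, adjusted p = 0.0032). The aristolochic acid libraries stood above both other groups, which overlapped at 6.82 CPM. COL20A1 rose from 0.396, 0.252 and 0.151 CPM to 3.72, 8.96 and 4.97 CPM (4.43, SE 0.51, adjusted p = 9.11e-05) and was at 2.45, 1.17 and 1.48 CPM with MYDGF (-1.79, SE 0.389, adjusted p = 0.0094). Like COL2A1 and COL11A2 it was under 0.5 CPM in untreated cells, and like COL11A2 it passed the filter through either treated group. COL21A1 rose from 1.51, 1.26 and 1.36 CPM to 3.4, 6.57 and 4.14 CPM (1.77, SE 0.333, adjusted p = 0.00143). Its difference of -0.86 between MYDGF and the toxin alone was not called (adjusted p = 0.0646), but was -1.05 without aristolochic acid 1 (adjusted p = 0.0306).

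The collagen IX genes fell. COL9A2 went from 3.01, 2.27 and 3.03 CPM to 0.567, 0.386 and 0.092 CPM (-2.92, SE 0.422, adjusted p = 0.000316), with 0.536, 0.703 and 0.989 CPM in the MYDGF group. Like COL14A1, it passed the filter only with the untreated group, so that a fall was bound up with its being tested. COL9A3 went from 13.4, 13.6 and 14.5 CPM to 9.23, 10.2 and 11.4 CPM (-0.43, adjusted p = 0.0226), a call lost without untreated 3, aristolochic acid 1 or aristolochic acid 4 (adjusted p from 0.0504 to 0.0713). In the MYDGF group COL9A3 was lower still, at 7.5, 9.06 and 6.71 CPM, below every untreated library (-0.84, adjusted p = 0.00101). Against the toxin alone that was -0.41 (adjusted p = 0.0568) and was called with DESeq2-style size factors (adjusted p = 0.0431) and without aristolochic acid 1 or MYDGF 3 (adjusted p from 0.0355 to 0.0366). COL9A3 overlaps TCFL5 on the opposite strand.

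Of the collagens left, COL8A2, a network collagen of corneal endothelium, fell from 11.1, 9.73 and 8.32 CPM to 3, 4.1 and 3.04 CPM (-1.52, SE 0.258, adjusted p = 0.000804). It stayed low with MYDGF, at 3.75, 1.87 and 2.12 CPM, which was called below the toxin alone without MYDGF 1 (-0.76, adjusted p = 0.0462). The transmembrane collagen COL13A1 rose from 6.42, 5.29 and 5.52 CPM to 12.6, 15 and 16.5 CPM (1.35, SE 0.135, adjusted p = 4.18e-05) and was at 10.3, 10.5 and 10.3 CPM with MYDGF. That last difference (-0.50, adjusted p = 0.0194) was lost without aristolochic acid 4 or 6 or MYDGF 3 or 4 (adjusted p from 0.0505 to 0.0638). COL17A1, the transmembrane collagen of hemidesmosomes, fell from 6.26, 4.45 and 5.22 CPM to 3.24, 4.33 and 2.48 CPM (-0.66, adjusted p = 0.0419). The call was lost without any one of untreated 1 or 3, aristolochic acid 1 or 6, or MYDGF 3 (log2 fold change from -0.67 to -0.47, adjusted p from 0.0558 to 0.145) and with DESeq2 (adjusted p = 0.0829). COL26A1 and COL28A1 ran from 1.77 to 6.05 CPM and were not called with all libraries. Without aristolochic acid 4, COL28A1 was lower with the toxin (-0.64, adjusted p = 0.0199), and without MYDGF 1, COL26A1 was lower with MYDGF against the toxin (-1.14, adjusted p = 0.0227).

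The glycoproteins also parted. FN1, fibronectin, the ligand of α5β1 and other integrins and a usual marker of fibrosis, was at 36.9, 42.2 and 38.3 CPM untreated, 13.7, 10.4 and 14.3 CPM with aristolochic acid, and 29.5, 29.9 and 28.8 CPM with MYDGF. The groups were separate: FN1 was 3.07-fold lower with the toxin (-1.62, SE 0.124, adjusted p = 1.18e-05) and 2.3-fold higher with MYDGF than with the toxin alone (1.204, SE 0.124, adjusted p = 0.000684). Its remaining difference from untreated cells, -0.41 (adjusted p = 0.0163), was lost without untreated 2, MYDGF 1 or MYDGF 4 (adjusted p from 0.0538 to 0.0648). TNC, an anti-adhesive glycoprotein of healing tissue, was at 50, 49.3 and 50.4 CPM untreated, 48.1, 58.3 and 56.7 CPM with aristolochic acid, and 101, 98.4 and 107 CPM with MYDGF. It was 1.88-fold higher with MYDGF than with the toxin alone (0.91, SE 0.082, adjusted p = 0.000414) and 2.04-fold above untreated cells (1.03, adjusted p = 2.05e-05). The difference of 0.12 with aristolochic acid was not called (SE 0.082), but without aristolochic acid 1 it was 0.22 (adjusted p = 0.0186). TNC counts per FN1 count were 1.28 ± 0.0978, 4.37 ± 1.11 and 3.48 ± 0.225 in the 3 groups.

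The position of the genes that rose with aristolochic acid was read against the nearest gene upstream on the same strand with at least 10 CPM in untreated cells. COL11A2 began 1.09 kb past RXRB, COL20A1 3.39 kb past ARFGAP1, COL7A1 3.73 kb past UQCRC1, COL16A1 22.8 kb past ADGRB2, COL2A1 38.3 kb past SENP1, COL21A1 63.9 kb past DST and COL27A1 99 kb past ZNF618. COL5A3, COL13A1 and LAMB3 were farther, at 105 kb past EIF3G, 168 kb past FAM241B and 127 kb past C1orf74. A limit of 100 kb thus held 7 of the 10 (70.0%), with COL27A1 just inside it and COL5A3 just outside, against 54.9% of the protein-coding genes tested that rose. The same limit held 26.1% of the 23 matrix genes that fell and 34.1% of all 41 testable ones. For the protein-coding genes tested it held 45.4% of those that fell and 47.5% of all. Among the 7 that rose within the limit, COL2A1 was tested only because of its counts in the toxin group. COL11A2 and COL20A1, and COL5A3 outside the limit, were tested only because of their counts in the treated groups. The differences between these shares were not tested. The number of genes with at least 1 count was higher in the treated groups, with 25852 to 26012 in untreated libraries, 28527 to 30637 in those given the toxin alone and 27818 to 28762 in the MYDGF group.

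**Figure D5:**
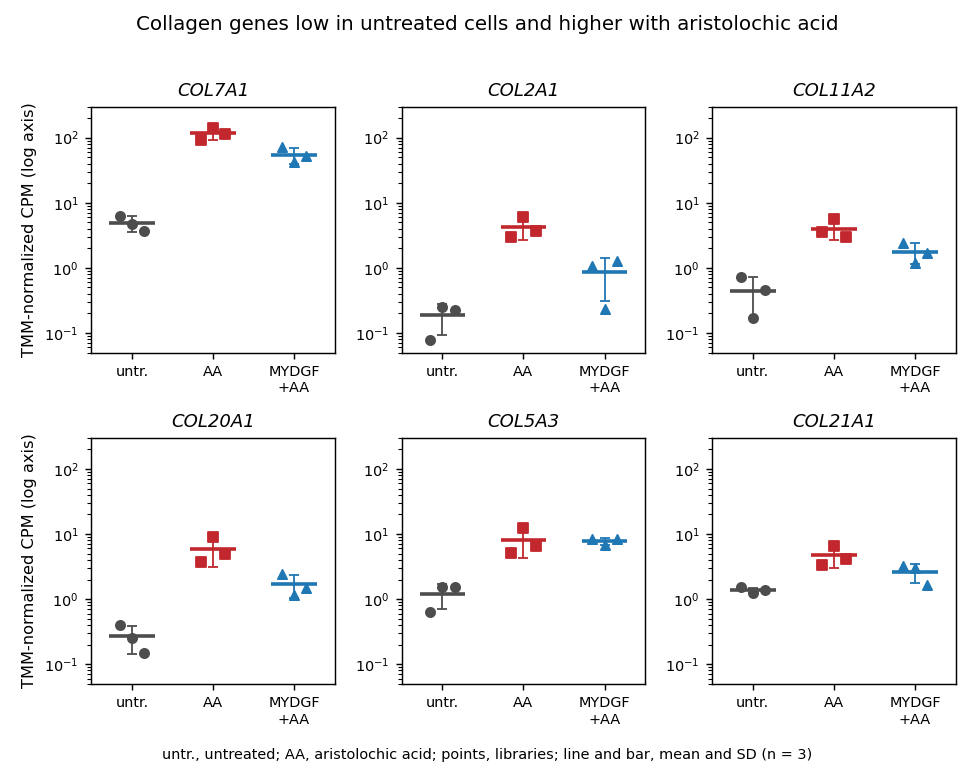
CPM per library, on a shared log axis, for 6 collagen genes that were at or below 6.26 CPM in untreated cells and rose with aristolochic acid, with points for libraries and lines and bars for the mean and SD of 3. COL7A1, COL2A1, COL11A2 and COL20A1 are lower with MYDGF than with the toxin alone, while COL5A3 is at a like level in both treated groups.

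The other 17 matrix genes were near silent, with a mean under 1 CPM over the 9 libraries, and none had enough counts to be tested. They are 3 fibrillar genes (COL1A2, COL3A1, COL11A1), 4 basement membrane genes (COL4A6, COL15A1, LAMA4, LAMB4) and 10 other collagens (COL6A3, COL6A5, COL6A6, COL8A1, COL9A1, COL10A1, COL19A1, COL22A1, COL23A1 and COL25A1). COL6A5, COL11A1 and COL22A1 had no count in any library. COL23A1, a transmembrane collagen 12.1 kb past CLK4, had 10, 20 and 2 counts in the 3 groups, and its ratio between MYDGF and the toxin alone was 0.0904 (95% interval 0.0102 to 0.372, for counting error only). LAMB4 had 6 counts with aristolochic acid (0, 2 and 4 in libraries 1, 4 and 6) and none in the other groups. Against a floor of 3 counts over a group that is 2.09-fold higher than untreated cells, with no counting error on the 6 taken into account.

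Other genes of the matrix were read in 5 lists, whose counts stand beside 29.7% of all genes tested that rose and 29.3% that fell with aristolochic acid, and 14.7% in each direction with MYDGF against the toxin. Of 11 testable basement membrane genes outside the collagens and laminins, 1 rose and 8 fell with aristolochic acid, and 4 rose and none fell with MYDGF against the toxin. Nidogen 2 (NID2), which links laminin to collagen IV, fell by 2.19 on the log2 scale and rose by 1.34 with MYDGF. Dystroglycan (DAG1), the laminin receptor, changed by -1.503 (SE 0.396) and 1.203 (SE 0.394, adjusted p = 0.0463), with a wide spread between libraries. It was at 351, 300 and 387 CPM untreated, 50.9, 117 and 199 CPM with aristolochic acid, and 355, 265 and 224 CPM with MYDGF. FRAS1, of the epithelial basement membrane, changed by -1.31 and 0.99. FREM2, its partner, fell by 1.31 with the toxin, and nidogen 1 (NID1) rose by 0.39 with MYDGF.

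Of 24 testable genes that modify collagen or carry it to the Golgi, 1 rose and 15 fell with aristolochic acid, and 7 rose and 2 fell with MYDGF. In the MYDGF group none was higher and 11 were lower than in untreated cells, beside 26.8% and 24.3% of all genes tested. FKBP10, a prolyl isomerase and collagen chaperone, changed by -2.13 and then 0.95. The prolyl 3-hydroxylase genes P3H3 (-1.34 and 0.65) and P3H1 (-0.87 and 0.53) followed the same order, SEC24D, of the vesicle coat, fell by 0.97, and the prolyl 4-hydroxylase P4HA1 rose by 0.55 with MYDGF.

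Of 14 testable genes of procollagen cleavage and crosslinking, 4 rose and 6 fell with the toxin, and 3 rose and 3 fell with MYDGF. The 4 that rose with the toxin (28.6%) are near the share over all genes, and the 3 in each direction with MYDGF (21.4%) differ from it by about 1 gene. The lysyl oxidase LOX fell by 1.87 and rose by 1.13 with MYDGF, LOXL4 fell by 2.14 with the toxin, and LOXL3 rose by 0.85 with MYDGF. The procollagen N-proteinase ADAMTS2 fell by 2.06 with the toxin. TLL2, a tolloid protease, rose by 3.33 and fell by 2.23 with MYDGF, and ADAMTS3 fell by 1.74 with MYDGF.

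Of 13 testable proteases and inhibitors, 3 rose and 7 fell with the toxin, and 2 rose and 2 fell with MYDGF (15.4% each, near the share over all genes). MMP19 rose by 3.42 with the toxin. The tissue plasminogen activator PLAT fell by 0.81 with the toxin and by a further 0.86 with MYDGF, MMP15 changed by -0.86 and 0.64, SERPINE2 rose by 0.42 and PLAU fell by 0.27 with MYDGF. Of 9 testable matrix receptors other than integrins, 2 rose and 4 fell with the toxin, and 1 rose and 3 fell with MYDGF. DDR2, a receptor for fibrillar collagen, rose by 4.26 and fell by 1.503 with MYDGF, while BCAM, a receptor for laminin α5, changed by -1.198 and 0.47. The collagen receptor MRC2 fell by 1.78 and SDC3 by 1.08 with the toxin, and SDC4 and SDC2 fell by 0.71 and 0.46 with MYDGF.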

How the data were processed

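RNA sequencing of 9 HK-2 libraries was taken from the table that the authors deposited, which holds whole-number counts per gene and, beside them, FPKM made by the authors. The tools named per the submitters' processing notes are HISAT2, edgeR, SAMtools 1.3.1 and CASAVA 1.8, and the build is mm10, of the mouse. The table itself lists human genes, and the positions of all 58 matrix genes overlap those of GENCODE 29 on GRCh38. Counter, annotation, strand setting and multi-mapping rules are not given in the sources used, and reads of overlapping genes may be split or merged. Counts were tested with edgeR 4.0.16 in R 4.3.3: filterByExpr (minimum count 10, minimum total 15), TMM scaling, 1 factor with 3 groups, quasi-likelihood F test, 6 residual degrees of freedom, and Benjamini-Hochberg adjustment over the 18267 genes tested. Levels are TMM-scaled CPM, and SE is that of the log2 fold change. Alternatives were DESeq2 1.42.0, other size factors, no filter, a fit to the 6 libraries compared, and leaving out each library. Results of 1 matrix gene and of 1 gene of the other lists are counted but not reported here by name. Scripts were tested on simulated data. No pair of libraries in a group agreed within sampling noise. The median log2 fold change of all genes moved by less than 0.1 between scalings. The members and gene lists were chosen with earlier results of these data known. Values in all libraries are given for changed members in order of FPKM and for others described in the text. In each of the other lists at most 4 genes are named per comparison, those called with a mean of at least 1 CPM and the largest absolute log2 fold change. Coordinates and promoter sequences are from RefSeq (GRCh38.p14) where stated.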

Additional observations from a re-analysis of the deposited data

How the results depend on the processing

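Of the member calls, those kept under every left-out library and every other setting but the replicate block were 9 of 10 that rose and 18 of 23 that fell with aristolochic acid, 9 of 11 and 5 of 7 with MYDGF against the toxin, and 8 of 9 and 13 of 18 with MYDGF against untreated cells.

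With 1 library left out, the members that rose and fell numbered 9 to 10 and 19 to 23 with aristolochic acid, 9 to 14 and 5 to 10 with MYDGF against the toxin, and 8 to 12 and 13 to 19 with MYDGF against untreated cells. Over all genes the same counts were 4988 to 5997 and 4685 to 5350, 1799 to 3152 and 1678 to 3462, and 4221 to 5427 and 3544 to 4690, against 5418 and 5361, 2688 and 2691, and 4889 and 4440 with all libraries. The lowest count that fell with MYDGF, 1678, was without MYDGF 3. The cause was not tested.

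The replicate numbers are shared only in part, and the labels do not say that they mark a batch. Deviations of same-numbered libraries correlated from -0.165 to 0.018, and those of other pairs between groups from -0.141 to 0.181. Whether same-numbered libraries share a culture or a run was not tested. A replicate block left 2 residual degrees of freedom. With it 15 members fell with aristolochic acid and 10 in MYDGF against untreated cells. Against the toxin alone, edgeR with the block called 0 members higher and 0 lower with MYDGF, though 10 and 6 had an unadjusted p under 0.05, and DESeq2 without a block called 11 and 7. Over all genes the block gave 2652 and 2410 with aristolochic acid, 8 and 6 with MYDGF against the toxin, and 2909 and 2537 against untreated cells.

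Values that changed sign were all uncalled with all libraries. Under the block, COL1A1 was 0.13, TNC -0.007 and LAMA2 -0.11 with aristolochic acid, and LAMA5 0.002 in MYDGF against untreated cells. LAMA2 was -0.019 without a filter. Against the toxin, LAMB1 was -0.018 and LAMC1 -0.023 with DESeq2-style size factors, and -0.006 and -0.01 with DESeq2. With 1 library left out, LAMA2 ran from -0.12 to 0.19 with aristolochic acid. Against the toxin, COL27A1 ran from -0.34 to 0.053, COL5A3 from -0.29 to 0.41, LAMA2 from -0.006 to 0.29, LAMB1 from -0.11 to 0.14, LAMB2 from -0.10 to 0.061, LAMC1 from -0.047 to 0.045 and COL28A1 from -0.17 to 0.15. COL4A1 ran from -0.12 to 0.027 against untreated cells. With thresholds of 0.5 and 2 CPM, 41 and 39 members counted as measured. Near-silent members are limited by counts of 20 or fewer per group for all but COL8A1.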
